A study of Mus musculus with 8 samples.

Results

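Non-cycling tumour cells are the fraction of the GL261 glioma graft that carried tumour cell transcripts but little RNA of the G2 and M phase genes of dividing cells. They were chosen by rule from single-cell counts: among the 1000 barcodes with the most UMIs of each library, those with at least 1000 detected genes were kept, and a member had a summed level of Col9a1, Col3a1, Lect1, Rhox5, Car6 and Syt4 of at least 10 UMIs per 10000 with at least 3 of these 6 genes detected, at most 20 for the myeloid genes Tyrobp, Fcer1g and Ctss, and less than 5 for the 8 cycle genes Top2a, Mki67, Cenpf, Ube2c, Ccnb1, Hmmr, Tpx2 and Birc5. Of 5733 kept cells, 4807 came from tumour-bearing mice, 3277 of these met the tumour and myeloid conditions, and 967 were members, that is 29.5% of the tumour cells and 20.1% of the cells from tumour-bearing mice. The other 2310 tumour cells, at or above the cycle threshold, are called cycling tumour cells.

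The data are Drop-seq libraries, in which droplets pair single cells with barcoded beads and the 3′ ends of mRNA molecules are counted by unique molecular identifiers (UMIs). GL261, an established line of mouse glioma cells, was implanted (500 cells) into the brain of C57BL/6 mice (C57BL/6N by the methods) that were WT (Acod1 +/+) or KO (Acod1 -/-), and tumours were taken at an early (5 to 10 mm3), intermediate (20 to 25 mm3) or late (30 to 35 mm3) volume. The labels give 1 mouse and 1 library for each of the 6 combinations, and the 2 naïve libraries (WT and KO, 2 mice named in each title) hold no implanted cells. By the methods, KO hosts carry an Acod1 allele with a cassette inserted between its exons 3 and 5, controls were littermates, tissue was depleted of myelin with beads, and the early WT and intermediate KO hosts were female while the other tumour-bearing hosts were male. The grafted cells are the same line in both genotypes, so KO and WT below name the host, and the age of the mice is not given in the sources used here. Since each group is 1 mouse, p-values between genotypes or stages rest on the spread between 6 libraries.

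Gliomas hold cells that divide and cells that have left, or pause between, divisions, and the latter are of interest because many therapies act on dividing cells. OPCs, the oligodendrocyte precursor cells of the brain, divide and give rise to myelinating oligodendrocytes, whereas astrocytes support synapses and take up glutamate and potassium. Tumour cells of glial origin often keep parts of these programmes, so normal glia are the natural reference for their transcriptome. MHC class I molecules, which show peptides to T cells, and the genes that load them are induced in many cell types by interferons.

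The WT early, KO early, WT intermediate, KO intermediate, WT late and KO late libraries held 61, 130, 309, 203, 121 and 143 members, respectively. Sums over members ranged from 561312 UMIs (WT early) to 2107732 UMIs (WT intermediate), and the median member had 4927 UMIs and 2494 detected genes. The reference glia of the same libraries comprised 60 OPCs, 81 astrocytes and 218 oligodendrocytes, with medians of 2541, 2333 and 2730 UMIs per cell, about as many as the 2643 UMIs of astrocytes and 2937 UMIs of oligodendrocytes in naïve brains. The WT intermediate library held 4 OPCs and 4 astrocytes, under the minimum of 5 cells per sum, and contributed neither class to any test. No member barcode occurred in another library, and 2 barcodes were shared among all kept cells. Of the members, 69 also met the marker list of a glial class, 18 that of OPCs, 9 that of astrocytes and 43 that of oligodendrocytes, and they were kept unless stated otherwise.

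The 6 genes that chose the tumour cells are given as a description, with no test. Lect1 (chr14:79637690-79662170, minus strand, GRCm38), which encodes the cartilage glycoprotein chondromodulin, stood at 27.2, 29.2, 29.1, 36.3, 25.2 and 28.6 UMIs per 10000 in the members of the WT early, KO early, WT intermediate, KO intermediate, WT late and KO late libraries, an order kept for all sets of 6 values below. Its median level was 0.768 in OPCs, 0.982 in astrocytes and 0.638 in oligodendrocytes. Lect1 was the steadiest of the 6 between tumours, whereas Col3a1, a fibrillar collagen, ran from 4.26 (WT early) to 29.3 (WT intermediate), and Col9a1, a chain of cartilage collagen IX, from 9.39 to 32.0 in the same libraries. Rhox5, a homeobox gene of reproductive tissue, ran from 5.36 to 8.26, Syt4, a synaptotagmin, from 6.36 to 12.2, and Car6, a secreted carbonic anhydrase, from 1.94 to 8.65. At least 1 Lect1 UMI was found in 97.6% of members, against 16.7% of lymphocytes of the tumour-bearing mice (median depth 2959.5 UMIs) and 3.37% of naïve astrocytes. The part of free RNA and shared droplets in the low glial level was not tested.

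**Figure D1:**
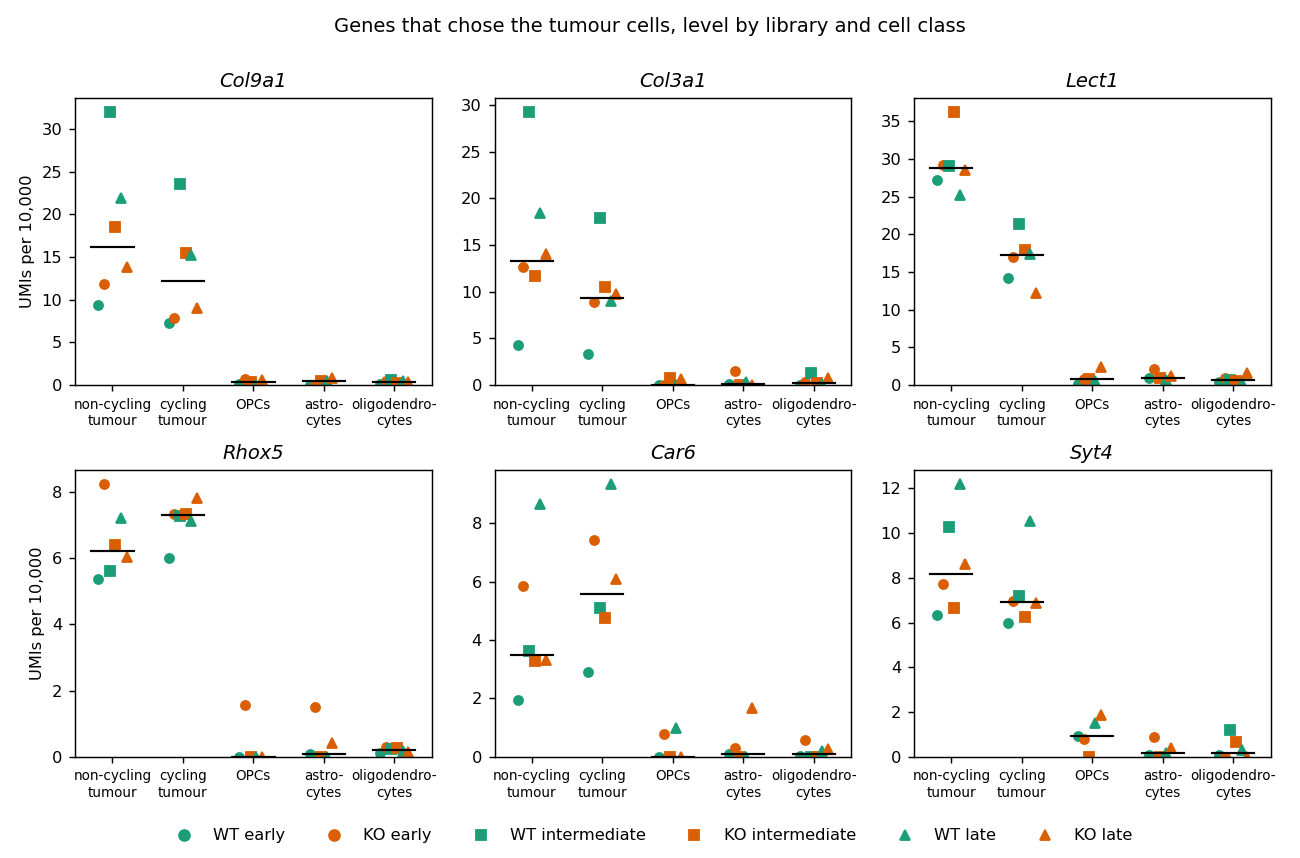
Level (UMIs per 10000) of the 6 genes that chose the tumour cells in each cell class, with 1 point per library and a line at the median over libraries. Non-cycling tumour cells lay above the 3 glial classes in each library for these genes, by construction, and Lect1 ran from 25.2 to 36.3 in them.

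Most members were far from the tumour threshold, with a median sum of 83.9 and a range of 10.2 to 290. The number of the 6 genes detected was 3 in 86 members, 4 in 211, 5 in 349 and 6 in 321. Just inside the tumour threshold, 2 members had sums between 10 and 12 (median 10.2), and just outside it 2 cells with at least 3 of the genes had sums between 8 and 10 (median 9.30). Of the 926 kept cells of naïve brains, 0 met the tumour condition, which allows a share of up to 0.324%. The cycle threshold divided a continuous range, with 99 members between 4 and 5 and 82 cycling cells between 5 and 6. Those 99 and 82 cells had median levels of 10.2 and 15.0 UMIs per 10000 for a list of 25 G2M genes outside the rule. No cycle gene UMI was seen in 481 members (49.7%).

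The name non-cycling was only partly borne out by genes outside the rule, since the 8 cycle genes belong to G2 and mitosis and do not report DNA synthesis. A list of 25 S phase genes, which encode replication factors such as Pcna and the Mcm helicase subunits, reached 10 UMIs per 10000 in 325 members (33.6%) and in 88.7% of cycling tumour cells. The shares were 35.0% in OPCs, 14.8% in astrocytes and 13.3% in oligodendrocytes, whose cells were shallower. The summed level of the list was at most 13.6 UMIs per 10000 in members, in the KO early tumour, and 25.2 to 29.4 in cycling tumour cells. The members are therefore cells low in G2 and M phase RNA, and not cells without S phase RNA.

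Transcripts of the sex chromosomes set the members apart from their hosts. Xist, the noncoding RNA of the inactive X of female cells (chrX:103460366-103483254), gave 14 UMIs in members of the female WT early host (0.249 per 10000) against 1305 UMIs in the non-tumour cells of that library (6.29 per 10000). In the female KO intermediate host it gave 8 UMIs in members (0.0565 per 10000) against 809 in other cells (6.28 per 10000). In the male KO early, WT intermediate, WT late and KO late hosts, Y-linked genes stood at 0.0700, 0.0996, 0.220 and 0.0866 UMIs per 10000 in members against 2.12, 2.52, 1.66 and 1.70 in non-tumour cells. Members thus carried neither host mark at more than a small fraction of the host level, whatever the sex of the mouse.

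Acod1, the gene inactivated in KO hosts and an enzyme of itaconate synthesis in macrophages, was counted at 0, 0, 2, 20, 0 and 0 UMIs in members. The 20 UMIs of the KO intermediate library lay in 1 cell of 35042 UMIs with a tumour sum of 12.3, close to the threshold, which also held 174 of the 186 UMIs of Spp1 in that library's members. Non-tumour cells held 142, 27, 6, 6, 4 and 36 Acod1 UMIs, so the gene was also counted in the libraries labelled KO. Reads of 3′ ends need not cover the site of the cassette, and these counts check no label.

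Against the mean of the 3 glial classes, members carried more RNA of cartilage matrix, MHC class I, interferon-stimulated, p53 and Myc list and glycolysis genes. They carried less RNA of mitochondrially encoded genes. Astrocyte genes and neuroendocrine and secretory genes were also lower. Most of these entered the test only through glia, so their falls are a description. Raw UMIs were summed per library and class and compared within libraries by edgeR's quasi-likelihood test, which leaves out the genes of the rules. Of 4831 genes tested, 1521 were higher in members (31.5%) and 1126 were lower (23.3%) at an adjusted p of 0.05. Against OPCs 22% of genes were higher and 17.3% lower, against astrocytes 25.8% and 21.7%, and against oligodendrocytes 30.9% and 28.2%. These 3 comparisons share the tumour sums. Among the called genes, members were higher than each glial class in each library in 531 and lower in 100. A gene with 0 UMIs in any glial sum cannot count as lower, and the smallest of these sums held 12836 UMIs. The balance of directions depended on the method. DESeq2, which differs in model and in scaling, moved the median log2 fold change of all genes from 0.08 to -0.09 and called 1258 genes higher and 1485 lower, so that 45.9% of its calls were higher against 57.5% of those of edgeR. With upper-quartile scaling edgeR called 1419 higher and 1217 lower (53.8% higher). With DESeq2 in place of edgeR, against OPCs the share of calls that were higher went from 55.9% to 39.0%, and against astrocytes from 54.3% to 43.6%. Against oligodendrocytes it went from 52.3% to 48.4%. With upper-quartile scaling the share was 48.9% against OPCs, 49.2% against astrocytes and 53.9% against oligodendrocytes. Without the filter on low counts it was 80.8% against the mean of glia. A gene near 0 in one group can be tested only where the other group carries it over the filter on low counts, and its direction is then fixed. With the glial sums taken by themselves, 1194 of the 1521 higher genes met the filter. With the member sums taken by themselves, 174 of the 1126 lower genes met it. These counts include the genes that met it in both groups, 1073 higher and 174 lower. Among the 1975 genes that met it in both, 54.3% were higher and 8.81% lower. The classes were separated on marker genes of the same cells, and the tests describe how other genes differed between cells so chosen.

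The genes with the largest positive fold changes, among those higher than each glial class in each library, met the filter on low counts through members alone, so their fold changes are a description, with no test. They included a cartilage collagen, genes of the X chromosome and genes of uncharacterised function. Col2a1 (chr15:97975602-98004695), the main collagen of cartilage, stood at 5.83, 2.58, 4.59, 6.88, 3.10 and 3.30 UMIs per 10000 in members, and at a median of 0 in OPCs, 0 in astrocytes and 0.131 in oligodendrocytes. The groups did not overlap, and the pooled ratio of members to glia was 41.6 (exact 95% interval 24.3 to 78.1, counting error only). Xlr, an X-linked gene of lymphoid and germ cells (chrX:53777118-53797706), stood at 1.85, 2.02, 1.60, 1.67, 2.06 and 1.88, against 8 UMIs in the 16 glial sums together, a pooled ratio of 26.7 (13.5 to 61.9). It was found in 55.6% of members and 6.82% of lymphocytes, and reads of the Xlr family may be shared between near-identical copies. The level of Xlr hardly varied between tumours.

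Zfp385b, a zinc finger gene, had a log2 fold change of 7.81, Pet2, an X-linked transcript, 6.05, Ifi213, of the interferon-inducible PYHIN family, 5.99, and Col1a1, a collagen of fibroblasts and bone, 5.90. Pet2 and Zfp385b ran from 1.29 to 2.20 and from 2.02 to 2.74 UMIs per 10000 in members. By contrast AC133103.1 (2.26, 1.84, 0.446, 2.61, 0.565 and 1.74), 2010005H15Rik (1.89, 1.73, 0.669, 1.79, 0.387 and 1.78), Apol6 (2.64, 1.85, 0.209, 1.65, 0.157 and 2.57) and C130026I21Rik (2.10, 1.82, 0.754, 2.44, 0.859 and 2.21) were lowest in the WT intermediate and WT late tumours. Ifi213, Apol6 and C130026I21Rik belong to families of near-identical genes, and their counts are uncertain for that reason. AC133103.1, for which no position was matched, had 1 UMI in glia, a pooled ratio of 168 with an exact 95% interval of 30.2 to 6661 that covers counting error only. 2010005H15Rik had 3 glial UMIs and a ratio of 49.5 (16.9 to 241).

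The genes with the largest negative fold changes met the filter through glia alone, and they too are described with no test. They included a receptor subunit and adhesion proteins of neural cells. Gria2, a subunit of AMPA receptors, ran from 0.00706 to 0.0583 UMIs per 10000 in members against a median of 13.0 in OPCs and 10.3 in astrocytes (log2 fold change -6.52). Ncam1, the neural cell adhesion molecule, had -5.94, Nrxn2, a neurexin of synapses, -6.28, Hepacam, a glial adhesion protein, -5.92, and Ppp1r9a and Phactr3, which bind protein phosphatase 1, -6.43 and -6.27. Nap1l5 had -6.85, Phyhipl -6.63 and Mmd2 -5.68. In each library the level of these genes in members was below that in each glial class, and in cycling tumour cells their median levels, 0.0100 to 0.0351 UMIs per 10000, were also low.

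The gene lists are counted over all genes tested, of which 31.5% were higher and 23.3% lower. Fewer genes of the lists met the filter in both groups, where 54.3% of all such genes were higher and 8.81% lower. Those that did were 14 MHC class I genes with 14 higher, 14 interferon-stimulated genes with 11 higher and 1 lower, 7 genes of the p53 and Myc list with 7 higher, 8 glycolysis genes with 7 higher, 6 matrix genes with 6 higher, and 6 mitochondrially encoded genes with 5 lower. Of the astrocyte markers 1 met it in both, of the neuroendocrine genes 2 and of the SOX factors 4. The astrocyte and neuroendocrine falls thus came mostly from genes that entered through glia, and those of the SOX factors did so in each case. Col9a2, Col1a1, Cdkn2a, Slc16a3, Erbb3 and Itm2a entered through members, and their rises are a description.

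**Figure D2:**
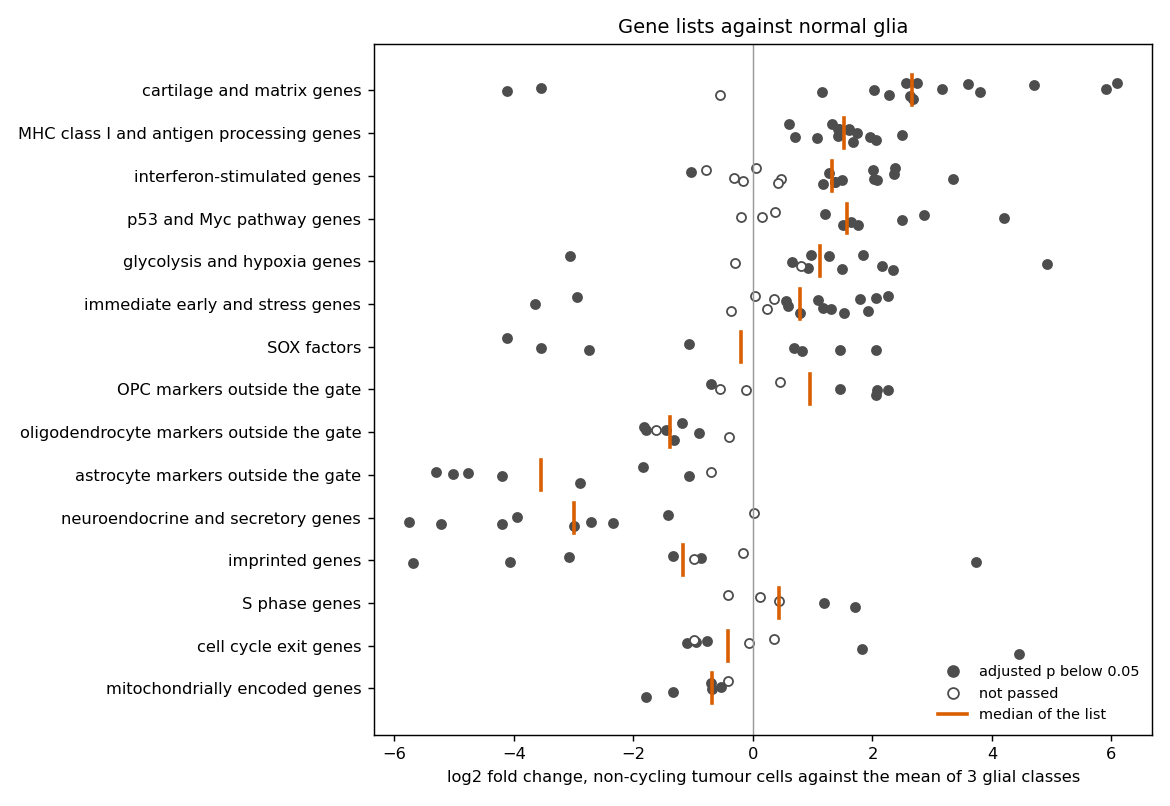
Log2 fold change of the genes of each list in non-cycling tumour cells against the mean of the 3 glial classes, 1 point per gene tested, with the median of the list as a line. MHC class I genes lay to the right without exception, with a median of 1.52, and astrocyte markers to the left, with a median of -3.55.

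Cartilage and matrix genes were represented by 16 tested members of a list of 25. Of these, 13 rose and 2 fell, with a median log2 fold change of 2.66 beside 0.08 for all genes tested, and this list was drawn up with tumour genes of these data known. Sparc, a matricellular glycoprotein, stood at 11.7, 23.4, 25.9, 19.7, 18.5 and 32.5 UMIs per 10000, with glial medians of 0.779, 4.91 and 2.31 in OPCs, astrocytes and oligodendrocytes, and rose by 3.17 (SE 0.23). Col11a1 rose by 3.80, from glial medians of 0.594 to 3.09 to levels of 7.81 to 20.1. Col9a2 and Col9a3, the partners of Col9a1 in collagen IX, rose by 4.71 and 2.63. The 2 that fell were Sox9 (-3.55) and Sox5 (-4.12), transcription factors of cartilage formation, which stood at a median of 0.0258 and 0.0159 UMIs per 10000 in members. Both entered through glia, so their falls are a description. Col1a1 is also a marker of mural cells and fibroblasts, and stood at 0.196, 0.338, 2.26, 1.83, 3.56 and 0.552 in members.

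Of 8 tested genes of the SOX list, 4 were higher and 4 lower. The 4 that met the filter in both groups were all higher, with a median of 1.14. The 4 lower ones entered through glia, so their falls and the list median below are a description. Sox10 and Sox6, factors of the oligodendrocyte lineage, rose by 1.46 and 2.06, and Sox4 (0.82) and Sox2 (0.69), factors of neural progenitors, rose less. Sox5, Sox9, Sox21 (-2.75) and Sox8 (-1.08) fell. The median of the list, -0.19, kept its sign under DESeq2 (-0.40), upper-quartile scaling (-0.27) and naïve glia (-1.39), and was 0.50 among cells with at least 1500 genes.

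Lineage markers that the rules did not use gave members a mixed place. The 8 OPC markers summed to 14.8 to 21.0 UMIs per 10000 in members, below OPCs (47.2 to 73.6) in each library that had both, above astrocytes (2.45 to 4.999) and overlapping with oligodendrocytes (10.8 to 16.5). Of these 8, 4 were higher in members than in the mean of glia, 1 was lower and 3 did not pass, whereas 7 of 8 astrocyte markers and 6 of 8 oligodendrocyte markers were lower, with no marker higher in either list. Of the OPC markers that met the filter in both groups 4 of 6 were higher (66.7%), beside 54.3% of all such genes. Of 5 such oligodendrocyte markers 4 were lower (80%), beside 8.81% of all such genes, and only 1 astrocyte marker met the filter in both. Sox10 stood at 2.80, 3.77, 3.62, 4.02, 2.86 and 3.90 UMIs per 10000 against medians of 3.45 in OPCs, 0 in astrocytes and 3.06 in oligodendrocytes, and its difference from OPCs, a log2 fold change of 0.26, did not pass (adjusted p = 0.468 by edgeR). Sox6 likewise stood at 1.99 to 3.50 against 0.491 in astrocytes and 0.187 in oligodendrocytes, with a difference from OPCs of -0.20 (adjusted p = 0.614 by edgeR). A p that misses the threshold does not show that the levels are equal.

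Other OPC genes lay between the classes. Vcan, the proteoglycan versican, stood at 4.38, 2.94, 2.54, 3.41, 5.28 and 2.80, below the OPC median of 12.2 (log2 fold change -1.31, adjusted p = 1.98e-05 by edgeR) and above 0.589 in astrocytes and 0.106 in oligodendrocytes. Cspg4, the NG2 proteoglycan, ran from 0.746 to 1.66, with 4.99 in OPCs and a fall of 1.78 against them. Olig2, a factor that specifies the lineage, was lower than in glia as a whole (-0.70) and than in OPCs (-2.41), and Olig1, at 3.88 to 7.15, did not pass against the mean of glia (log2 fold change -0.12, adjusted p = 0.648 by edgeR) but was lower than in OPCs (-1.47).

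Astrocyte markers were low. Slc1a3, a glutamate transporter, stood at 0.0380 to 0.325 against 44.0 in astrocytes (log2 fold change against glia -4.76), and Plpp3, a lipid phosphatase, at 0.478 to 1.29 against 43.2. Myelin genes were present at a low level. Over the 8 oligodendrocyte markers the summed level was 29.4, 30.7, 37.1, 28.6, 27.2 and 24.7 UMIs per 10000 in members, and none was at 0. The medians were 1034 in oligodendrocytes, 32.5 in OPCs, 10.3 in astrocytes and 15.02 in cycling tumour cells. Members lay below oligodendrocytes in each library, and above cycling tumour cells in 5 of 6. Cnp, an enzyme of myelin, had a log2 fold change of -0.91 against glia, and Apod, a lipocalin, of -1.32. The part that free RNA or shared droplets have in these levels was not tested, and without the 69 members that met a glial list the oligodendrocyte markers had a median of -1.88 against glia in place of -1.39, with 7 in place of 6 lower.

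Neuroendocrine and secretory genes were examined because Syt4, used by the rule, belongs to regulated secretion. Of 9 tested, 8 fell, 0 rose and 1 did not pass, with a median of -2.99. Only 2 of the 9 met the filter in both groups, of which 1 was lower. The other falls came from genes that entered through glia and are a description. The 8 lower genes included Scg5 (-5.75) and Scg3 (-5.23), granins of secretory granules, Snap25 (-3.96), a fusion protein of synaptic vesicles, and Syt11 (-2.71), a synaptotagmin. Cpe, an enzyme that trims prohormones, did not pass (3.62 to 9.54 UMIs per 10000, log2 fold change 0.03), and Chga and Pcsk1 had 0 UMIs in members.

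Genes of growth were higher. Of 10 tested genes of the p53 and Myc list, 7 rose and 0 fell, with a median of 1.58, beside 31.5% of all genes tested that were higher. Myc (chr15:61985391-61990374), a driver of growth, ran from 1.19 to 2.01 UMIs per 10000 in members against medians of 0.734 in OPCs, 0 in astrocytes and 0.145 in oligodendrocytes, a log2 fold change of 4.21 (SE 0.50, adjusted p = 3.05e-09 by edgeR). The nucleolar proteins Npm1 and Ncl rose by 2.85 and 1.65, and the cyclins Ccnd1 and Ccnd3 by 1.76 and 2.49, although Ccnd1, at 7.29 to 13.2, did not pass against OPCs (log2 fold change 0.15, adjusted p = 0.758 by edgeR).

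Trp53, which encodes p53, ran from 0.890 to 1.36 and rose by 1.51 against the mean of glia (SE 0.29, adjusted p = 2.18e-05 by edgeR), but its OPC median was 1.54 and the difference from OPCs was 0.04 (adjusted p = 0.948 by edgeR). Cdkn2a, which encodes the cell cycle inhibitors p16 and p19 and lies at chr4:89274471-89294653, stood at 2.73, 2.81, 1.98, 3.78, 2.86 and 3.12 in members with 13 UMIs in all glial sums (log2 fold change 4.45). Its level in cycling tumour cells was similar, with a median of 2.87, and 65.6% of members against 6.06% of lymphocytes held a UMI. Cdkn1a, the p53 target p21, rose by 1.82. Of the 8 tested genes of cell cycle exit, Cdkn2a and Cdkn1a rose, Rbl2 (-1.11), Btg2 (-0.96) and Ccng1 (-0.77) fell and 3 did not pass. The genes that fell entered through glia and Cdkn2a through members, so these changes are a description. Of the 2 genes that met the filter in both groups 1, Cdkn1a, was higher and 0 were lower.

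Among 10 tested receptors and signalling genes of glioma, Cd44, a hyaluronan receptor, stood at 0.828 to 1.48 in members with glial medians of 0 in OPCs, 0.491 in astrocytes and 0.0465 in oligodendrocytes (log2 fold change 3.83), and Erbb3, a neuregulin receptor, rose by 3.49. Egfr and Fgfr1 fell by 3.76 and 1.49, but both entered through glia, so their falls are a description. Of this list 6 genes did not pass, among them Nras (0.54).

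Glycolysis and hypoxia genes rose in 9 of 12 tested, with a median of 1.13. Of the 8 that met the filter in both groups 7 were higher (87.5%), beside 54.3% of all such genes. Slc16a3, a lactate exporter, rose by 4.92, Ldha by 2.17 and the cytokine Mif by 2.34, while Ndrg1, abundant in oligodendrocytes (median 11.5), fell by 3.06. Ndrg1 entered through glia, so its fall is a description. The KO early tumour had the highest Ldha, at 11.3 against 3.71, 7.06, 5.89, 8.39 and 5.72 in the others. Mitochondrially encoded genes fell in 5 of 6 tested, and the median share of mitochondrial UMIs per cell was 0.327% to 0.506% in members against 0.412% to 0.767% in OPCs, 0.563% to 1.02% in oligodendrocytes and 0.493% to 1.33% in astrocytes. In each library the members lay below each glial class that had a sum.

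Genes of immediate early response and protein folding rose in 11 of 17 tested and fell in 2, Hspa8 (-3.65) and Hspa1a (-2.95). Both falls came from genes that entered through glia and are a description. Of the 14 genes that met the filter in both groups 78.6% were higher, beside 54.3% of all such genes. The chaperone Hsp90ab1 stood at 76.5 to 85.8 UMIs per 10000 against 22.1 to 39.4 in the glial medians. Fos, a gene also induced by tissue dissociation, stood at 13.1 to 29.9, below the OPC median of 46.3 and above those of astrocytes (3.43) and oligodendrocytes (8.26).

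Markers of other cell types were measured in members because droplets can hold RNA of more than 1 cell. Of the 8 endothelial markers 3 were tested and rose, Itm2a (3.37), Flt1 (2.80) and Ly6c1 (2.72). Flt1 did not pass with DESeq2 (log2 fold change 1.74, adjusted p = 0.383), and against naïve glia its log2 fold change was -0.98 and did not pass with edgeR. Of the alternatives that tested Flt1, 5 kept its call, 5 no longer passed and 1 changed sign. Their list summed to 2.35 (WT early) to 8.81 (KO early) UMIs per 10000. Itm2a had the highest mean level, but Ly6c1 stood above it in the KO early, KO intermediate and KO late tumours. Cldn5 and Pecam1, which define endothelium, stood at 0 to 0.397 and 0 to 0.117. Of 3 tested mural and fibroblast markers Col1a1 and Col1a2 rose (5.90 and 2.03) and 1 did not pass, but Col1a2 had a log2 fold change of -0.47 with DESeq2. Col1a2 was found in 14 members (1.45%) and in 7.41% of astrocytes, and its level was 4.95 in WT late, 1.07 in WT intermediate and at most 0.0467 in the other tumours. The Itm2a level was 1.32, 2.53, 2.24, 1.86, 3.29 and 2.73, and the part of admixed cells in these levels was not tested.

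Genes of germ cells and early embryos fell below the filter on low counts, and their counts are given as a description with no test, since glia held almost none of these UMIs. Tex19.1, a regulator of transposons in germ cells, gave 369 UMIs in members and 2 in glia, a pooled ratio of 32.2 (exact 95% interval 8.86 to 267). Xlr3a gave 210 UMIs in members and 0 in glia, at least 12.2-fold higher against a floor of 3 counts over the glial group, and Gm14139 and Dppa2 were at least 4.02-fold and 3.61-fold higher on the same floor. Of the 19 genes of this list present in the tables, 8 had 0 UMIs in members.

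MHC class I and antigen processing genes rose without exception among the 14 tested, with a median of 1.52, and DESeq2 also called 14 of 14 higher. B2m, the light chain of MHC class I, stood at 78.2, 96.1, 40.7, 98.2, 33.4 and 108 UMIs per 10000, with medians of 39.5 in OPCs, 15.5 in astrocytes and 59.0 in oligodendrocytes (log2 fold change 1.61, SE 0.26, adjusted p = 1.57e-06 by edgeR). H2-K1 and H2-D1, its heavy chains, rose by 1.97 and 1.43, and Psmb9 and Psmb8, subunits of the immunoproteasome that makes the peptides, by 2.49 and 2.05. Near-identical MHC genes may share reads. Of 18 tested interferon-stimulated genes, 11 rose and 1, Ifi27 (-1.04), fell, with a median of 1.32. Among the 14 of these that met the filter in both groups 78.6% were higher, beside 54.3% of all such genes. Gbp2, a guanylate-binding GTPase, rose by 3.35, and Igtp by 2.00 and Irgm1 by 1.37, both GTPases of the immunity-related family. Cxcl10, a chemokine that attracts T cells, rose by 3.96 and was counted in a separate list of chemokines and cytokines. Of 7 tested genes of that list 3 were higher and 2 lower, with a median of 0.44. The 2 lower genes entered through glia, and Spp1, among the higher ones, through members.

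The MHC class I and interferon-stimulated genes varied between tumours, and did so in members, cycling tumour cells and oligodendrocytes. The summed level of the 16 MHC class I and antigen processing genes was 229, 245, 114, 250, 95.5 and 284 UMIs per 10000 in members. The WT intermediate and WT late tumours were low and the other 4 were high, with no value between 114 and 229. In cycling tumour cells the sums were 185, 200, 96.7, 185, 82.5 and 225, and in oligodendrocytes 122, 211, 26.4, 155, 37.1 and 185, where the same libraries were low. In astrocytes the KO intermediate library was as low as the WT late library (36.8 and 39.8 for MHC class I genes, from 9 and 14 cells) and lower for interferon-stimulated genes (10.8 and 27.5), so the order differed there. In OPCs the WT late library was low (35.5, against 96.6 to 144 in 4 others), and the WT intermediate library had too few OPCs and astrocytes for a sum. Naïve astrocytes and oligodendrocytes stood at 26.4 and 18.4. Over the 20 interferon-stimulated genes the sums were 97.9, 113, 57.7, 95.7, 34.9 and 116 in members.

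Single genes differed in how deeply they fell in these libraries. Gbp2 stood at 17.5, 14.3, 4.66, 10.6, 0.921 and 22.5 in members, Igtp at 8.85, 12.6, 2.45, 9.76, 0.869 and 11.3, and Cxcl10 at 4.10, 7.44, 2.27, 6.83, 0.377 and 8.70. In each of the 3 genes the WT late tumour was lowest and the WT intermediate tumour next. Iigp1, another immunity-related GTPase, ran from 0.220 (WT late) to 15.2 (WT early), with 1.72 in the WT intermediate tumour. Calr, a chaperone of peptide loading that is not specific to interferon, stayed between 14.9 and 19.5. Isg15, at 1.46 to 2.22, and Ifit1, at 0.267, 0.642, 1.32, 0.402, 0.335 and 0.769, did not share the low values of the WT intermediate tumour.

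**Figure D3:**
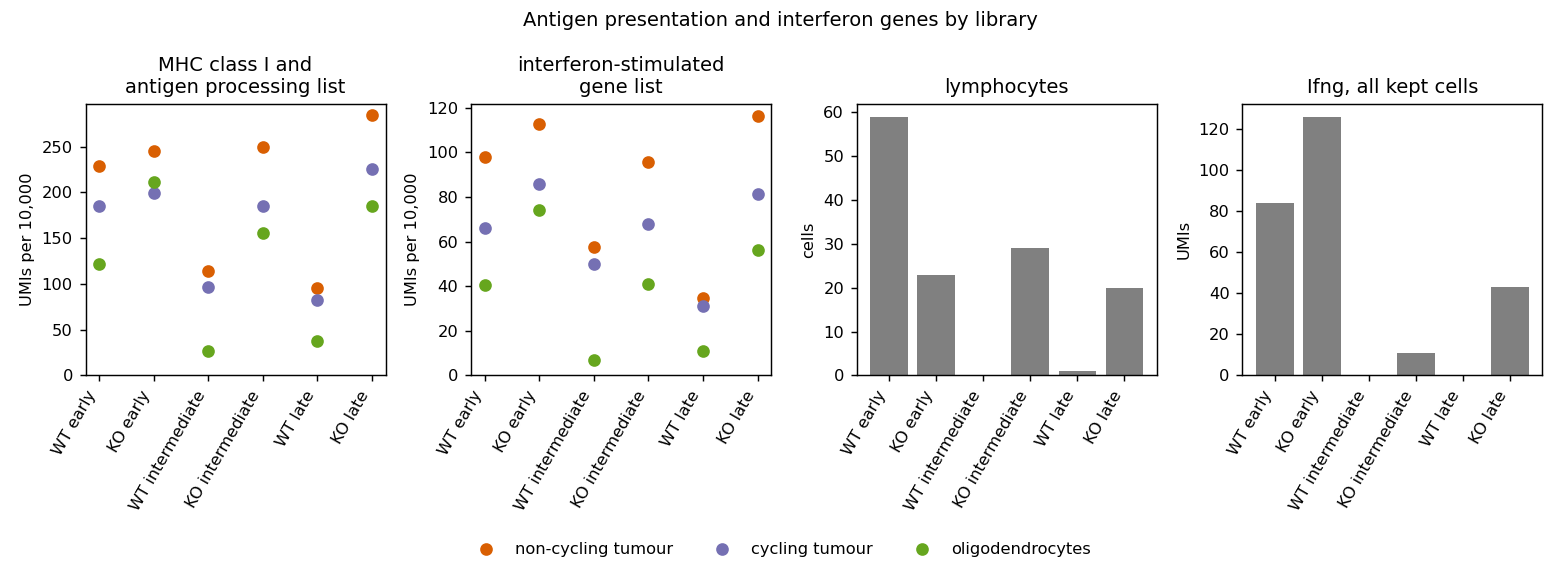
Summed level (UMIs per 10000) of MHC class I genes and of interferon-stimulated genes by library in non-cycling tumour cells, cycling tumour cells and oligodendrocytes, beside the number of lymphocytes and of Ifng UMIs in the kept cells of each library. The WT intermediate and WT late libraries were low in the 3 cell classes and held 0 and 1 lymphocytes and 0 Ifng UMIs.

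Lymphocytes, which include producers of interferon gamma, numbered 59, 23, 0, 29, 1 and 20 among the 729, 735, 1000, 843, 716 and 784 kept cells of these libraries. Myeloid cells were also few in the WT intermediate and WT late libraries, at 2.8% and 6.01% of kept cells against 14.6% to 26.3% in the others, and tumour cells made up 92.8% and 78.9% against 34.7% to 68.3%. Oligodendrocytes, astrocytes and OPCs numbered 33, 14 and 9 in WT late and 21, 4 and 4 in WT intermediate. They numbered 84, 29 and 25 in WT early and 24, 14 and 6 in KO early. In KO intermediate they numbered 33, 9 and 8, and in KO late 23, 11 and 8. Ifng, which encodes interferon gamma, gave 84, 126, 0, 11, 0 and 43 UMIs in all kept cells, and a count of 0 allows up to 0.00359 UMIs per 10000 in the WT intermediate and 0.00466 in the WT late library. Of those UMIs 83, 76, 0, 11, 0 and 25 lay in cells classed as lymphocytes, and the others in other kept cells. The 8 lymphocyte markers summed to 0.659, 0.910, 0.00474, 0.0494, 0.136 and 0.769 UMIs per 10000 in members, with Nkg7 the most counted and none at 0, and the 8 myeloid markers outside the rule to 0.713, 0.945, 0.337, 0.480, 1.25 and 1.21. The part of lymphocytes, of myeloid cells, of host sex or of dissection in the difference between libraries was not tested.

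The promoters of these genes are shown because binding sites of the interferon-responsive factors have known letters, and the genes that moved together can be read for them. The interferon-stimulated response element (ISRE) was searched as GAAA, any 2 bases and GAAA, and the gamma-activated site (GAS) as TTCNNNGAA, on both strands of the 250 bases before each gene start in RefSeq promoters of GRCm38.p6. The first occurs in 2.98% of 32851 promoters and the second in 7.02%. Of the 20 interferon-stimulated genes 15 had a promoter in the table, of which 10 held the ISRE letters and 4 the GAS letters, and of the 16 MHC class I genes 14 had one, of which 2 held the ISRE letters and 1 the GAS letters. In the stretches below capitals mark the matches, which may overlap, and each is printed 5′ to 3′ along its gene's own strand. A match is a description of the letters and no evidence of binding, and the lists were made of known interferon targets.
B2m (chr2:122147518-122147587, plus strand): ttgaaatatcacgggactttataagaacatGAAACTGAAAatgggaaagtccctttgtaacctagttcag
Psmb8 (chr17:34198068-34198136, plus strand): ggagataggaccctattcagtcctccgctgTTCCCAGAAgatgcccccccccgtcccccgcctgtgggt
Gbp2 (chr3:142620574-142620643, plus strand): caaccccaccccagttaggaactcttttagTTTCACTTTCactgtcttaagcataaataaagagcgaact
Igtp (chr11:58199481-58199555, plus strand): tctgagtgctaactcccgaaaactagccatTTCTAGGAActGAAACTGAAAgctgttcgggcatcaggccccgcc
Irgm1 (chr11:48871421-48871480, minus strand): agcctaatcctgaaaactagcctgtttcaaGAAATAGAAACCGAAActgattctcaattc
Cxcl10 (chr5:92349063-92349132, minus strand): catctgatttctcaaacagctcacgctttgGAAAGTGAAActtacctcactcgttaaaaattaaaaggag
Bst2 (chr8:71537557-71537638, minus strand): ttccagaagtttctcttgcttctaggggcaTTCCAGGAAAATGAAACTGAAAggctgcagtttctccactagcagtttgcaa
Isg15 (chr4:156200845-156200926, minus strand): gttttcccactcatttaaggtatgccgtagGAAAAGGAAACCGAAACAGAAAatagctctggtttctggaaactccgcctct

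The B2m stretch holds 1 ISRE match and the Psmb8 stretch 1 GAS match. Igtp and Bst2, a membrane protein that tethers viruses, hold both, with the GAS letters ahead of the ISRE letters in each, and in Igtp they lie 45 to 25 bases before the RefSeq gene start. Isg15 holds 3 overlapping ISRE matches, but its level was not low in the WT intermediate tumour (2.22, against 1.46 to 2.08 in the others). Bst2 stood at 9.94, 11.3 and 10.7 UMIs per 10000 in the WT early, KO early and KO intermediate tumours and at 6.56 in the WT intermediate tumour, a smaller difference than that of Igtp (8.85, 12.6 and 9.76 against 2.45).

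Host genotype was compared over the 6 tumours with the stage as a block, since the labels vary genotype and stage. MHC class I genes were higher in the KO host at each stage, 245 against 229 early, 250 against 114 intermediate and 284 against 95.5 late, but no single gene passed. Of 10255 genes 0 were called by edgeR (0%), with 489 at an unadjusted p under 0.05 and a smallest adjusted p of 0.117, and DESeq2 called 9. All 16 MHC class I genes had a positive log2 fold change, with a median of 1.06 beside 0.00 for all genes, and 12 had an unadjusted p under 0.05. Of the 20 interferon-stimulated genes 17 were positive, with a median of 0.54, and of 19 glycolysis genes 18, with a median of 0.40. The summed level of the glycolysis list was higher in the KO host early only, 81.3 against 26.7 UMIs per 10000, with 46.8 against 49.7 intermediate and 45.7 against 54.0 late. B2m had a log2 fold change of 1.13 (SE 0.33, adjusted p = 0.912 by edgeR) and Ly6c1, a surface protein of endothelial and immune cells, 3.33 (SE 0.39, adjusted p = 0.117). Ly6c1 stood at 0.677, 4.01, 0.256, 1.99, 0.0942 and 2.74, higher in the KO tumour of each stage. The median for MHC class I genes ran from 0.70 to 1.56 with 1 library left out, and 0 to 9 of the 16 genes were then called. Host sex differed between genotypes at the early and intermediate stages and cannot be told apart from genotype there.

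Late against early tumours gave 0 calls of 10255 by edgeR (0%), with 565 at an unadjusted p under 0.05 and a smallest adjusted p of 0.564, and 2 by DESeq2. Of 17 tested matrix genes 11 were higher late, with a median log2 fold change of 0.82 and 8 at an unadjusted p under 0.05. The mural and fibroblast markers, which share Col1a1 and Col1a2 with this list, moved the same way. All 4 tested were higher late, with a median of 3.98 and 3 at an unadjusted p under 0.05. Their summed level in members was 11.2 in WT late and 0.736 in KO late, against 0.232 in WT early and 0.642 in KO early. Col1a2 was found in 1.45% of members. The part of admixed mural cells or fibroblasts in the matrix change was not tested. H2-D1 had -1.06 and 2 of 16 MHC class I genes were higher late, but the genotypes differed in direction, since the MHC class I sum went from 229 early to 95.5 late in WT hosts and from 245 to 284 in KO hosts. That difference was not tested. Vgf, a secreted neuropeptide precursor, stood at 0.0356, 0.0700, 0.346, 0.529, 0.325 and 1.02, higher in both late than in both early tumours (log2 fold change 3.48, adjusted p = 0.564 by edgeR).

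The share of tumour cells below the cycle threshold was 24.1% (exact 95% interval 18.97 to 29.9), 25.9% (22.1 to 30.0), 33.3% (30.3 to 36.4), 37.5% (33.4 to 41.7), 21.4% (18.1 to 25.0) and 29.4% (25.4 to 33.6). It was highest in the intermediate tumours of both genotypes and higher in the KO than in the WT tumour of each stage. The early pair turned over in 4 alternatives, with 22.3% in KO against 23.4% in WT after thinning to 1500 UMIs, 24.8% against 25.2% with a tumour sum of 20 and 4 genes, 14.9% against 15.8% with an S phase list below 10, and 13.5% against 17.4% with a cycle threshold of 2. The means were 26.3% ± 6.23 (SD, n = 3) for WT and 30.9% ± 5.93 (SD, n = 3) for KO, and an exact two-sided permutation test gave p = 0.4, where 3 against 3 cannot go below 0.1. After each cell was thinned to 1500 UMIs the difference of 4.63 percentage points became 3.12 (p = 0.6, exact permutation test), with 5, 9, 0, 16, 19 and 33 shallower cells left out. With 1 library left out the difference ran from 1.36 (without KO intermediate) to 8.14 (without WT intermediate), and it was 2.20 without WT late and 7.13 without KO early.

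Non-cycling and cycling tumour cells of the same library are compared as a description, since the rule divided them by cell cycle genes. Non-cycling cells had more RNA of matrix genes (mean log2 ratio 0.68, range 0.45 to 1.07), SOX factors (0.43), interferon-stimulated genes (0.39) and MHC class I genes (0.30), each in 6 of 6 libraries, and less of p53 and Myc pathway genes (-0.32), in 6 of 6. Markers of glia outside the rules were higher too, those of astrocytes by 0.58 and of OPCs by 0.41 in 6 of 6 libraries and those of oligodendrocytes by 0.85 in 5 of 6, as were neuroendocrine and secretory genes (0.40, in 6 of 6). Xist and the Y-linked genes, which mark host RNA, were higher in 5 of 6 libraries, from few UMIs, with the largest ratio (2.57) in WT late at 0.220 against 0.0371 UMIs per 10000. Endothelial markers (0.57, higher in 5 of 6) and lymphocyte markers (0.75, in 4 of 6) were also higher. Myeloid markers outside the rule (-0.39, higher in 1 of 6) and neuron markers (-0.15, in 2 of 6) were lower. The rule limited myeloid RNA in both classes. The part of host RNA in the other lists was not tested. Carbonic anhydrases other than Car6 (0.86), among which Car9 is a target of hypoxia, and cell cycle exit genes (0.31) were also higher in 6 of 6. S phase genes were lower by 1.34 on the log2 scale and G2M genes outside the rule by 2.82. Lect1 was 17.2 in the median cycling class against 25.2 to 36.3 in members, while Rhox5 was at 7.31 against 5.36 to 8.26 and Car6 at 5.59 against 1.94 to 8.65.

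**Figure D4:**
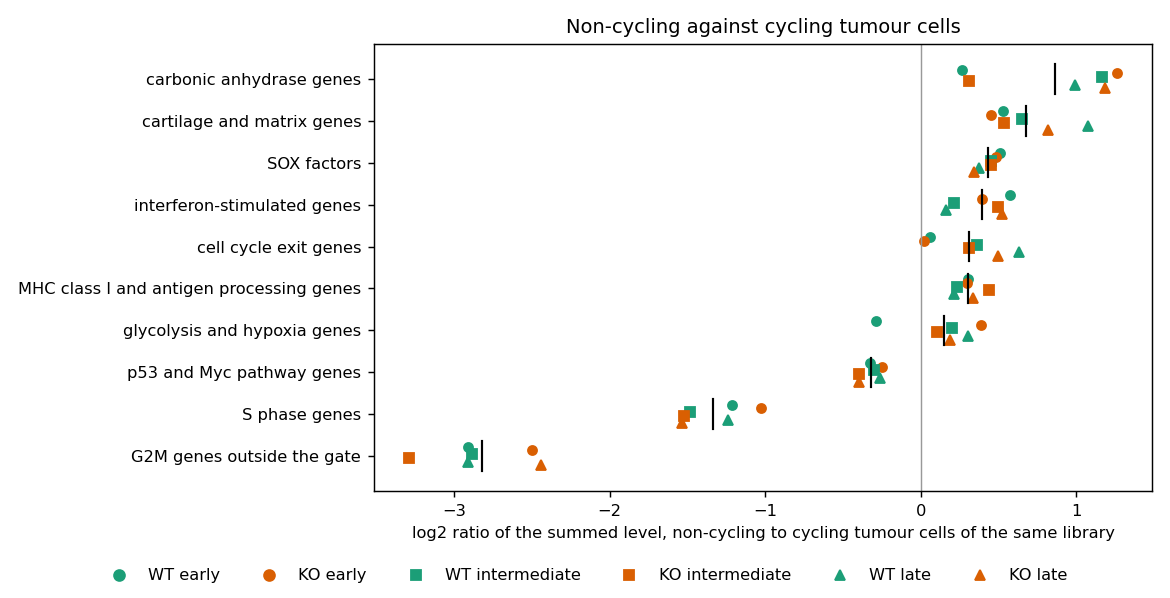
Log2 ratio of the summed level of each list between non-cycling and cycling tumour cells, 1 point per library, with the mean as a line. Matrix genes lay above 0 in 6 of 6 libraries (mean 0.68), and S phase genes below 0 in 6 of 6 (mean -1.34).

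Against glia, expression was uneven over the chromosomes, and the pattern is given as a description. On chromosome 15, which carries Myc and Col2a1, 104 of 194 tested genes were higher in members (53.6%), beside 31.5% of all genes tested. Its median log2 ratio minus that of all genes was 0.65, 0.49, 0.40, 0.58, 0.54 and 0.53. On chromosome 12, 12.1% of 174 genes were higher and the medians lay between -0.83 and -0.35. Chromosome 19 was also low, with a median of -0.47 over libraries, and chromosome X and chromosome 17 were above 0 in 6 of 6 libraries, with 0.32 and 0.27. Cycling tumour cells had 0.57 on chromosome 15 and -0.62 on chromosome 12, and with naïve glia as the reference members had 0.62 and -0.65. DNA copy number was not measured here.

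**Figure D5:**
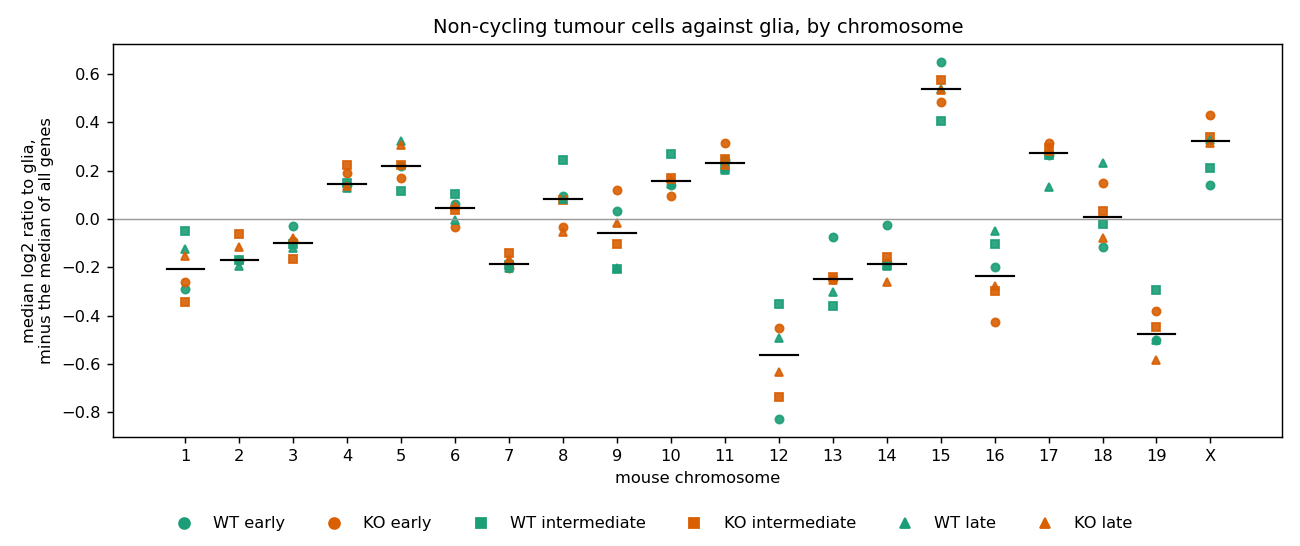
Median log2 ratio of non-cycling tumour cells to glia for the genes of each chromosome, minus the median of all genes, 1 point per library with the median over libraries as a line. Chromosome 15 lay between 0.40 and 0.65 and chromosome 12 between -0.83 and -0.35.

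The variation beyond counting error was measured as the squared coefficient of variation of UMIs within a library minus the Poisson part, as the median over 6 libraries, for 4665 genes with a mean of at least 0.2 UMIs per cell. The median gene had 0.225. The most variable were Sept4 (16.3), Apoe (11.4), Dqx1 (10.6), Dusp2 (7.08) and AA467197 (5.75). Without the 69 members that met a glial list, Sept4 and Dqx1 no longer met the minimum, Apoe, a lipid carrier of astrocytes and myeloid cells, fell to 4.93, and Dusp2, a phosphatase of activated cells, led with 6.97. Apod, a marker of oligodendrocytes, fell to 1.41, so part of the variation of glial genes lay in these 69 cells. Among the 10% of genes with the most variation were 7 of 7 ranked oligodendrocyte markers, 10 of 15 ranked immediate early and stress genes, 8 of 18 interferon-stimulated genes, 6 of 13 S phase genes, 5 of 8 G2M genes outside the rule and 5 of 9 matrix genes. The median was 0.174 for MHC class I genes, of which 0 of 15 were among that 10%, and 0.602 for interferon-stimulated genes, and Cxcl10 had 4.18.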

How the data were processed

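The authors demultiplexed the reads with bcl2fastq (version 2.0) and processed them with FastQC, Picard and the Drop-seq pipeline, with STAR and mm10 (GRCm38) named in the submitters' processing notes, and deposited 1 table per library of UMI counts per gene for 3000 barcodes, from 2885345 to 9950713 UMIs in all. From these counts the cells were filtered by UMI rank and detected genes, and classed by marker sums. The study also dropped genes seen in few cells before the minimum of genes per cell, a step not used here, which with a minimum of 30 cells over the 8000 barcodes would leave 5698 in place of 5733 cells and 965 of the 967 members (computed after seeing the data). A glial cell had a sum of at least 20 UMIs per 10000 for the 8 markers of its class with at least 3 detected, the largest of the 3 sums, at most 20 for the myeloid genes, and did not meet the tumour condition. The members and all gene lists were chosen with earlier results of these data known.

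UMIs were summed per library and class with at least 5 cells, 22 sums in all, and tested with edgeR 4.0.16 (R 4.3.3; TMM, filterByExpr, quasi-likelihood test, library as a block) with Benjamini-Hochberg adjustment over all genes tested and a threshold of 0.05. Host genotype was tested over the 6 member sums with the stage as a block, and stage likewise with the genotype. The study compared cells by a Wilcoxon test, whereas here the library is the replicate. Each tumour library is 1 mouse, and the titles of the naïve libraries name 2 mice each. Named genes were those of the rules, the 10 largest changes each way that kept their direction against each glial sum in each library, and up to 4 genes of each list with the highest mean level, with Cd44, Myc and Trp53, and genes singled out otherwise (list members that moved against their list, Sox factors, Bst2, Isg15, Ifit1, Vgf and the germline genes) were chosen after their values were seen. Some genes that the rule names are not reported here. Which group carried a gene over the filter was counted after seeing the data. Alternatives were DESeq2 1.42.0, upper-quartile scaling, no filter, other cell filters, naïve glia and leaving out each library. Doublets were not removed in the main results. Scrublet (scanpy 1.11.5) marked 0 to 11 cells per tumour-bearing library, and an alternative removed the 5% highest-scoring cells where it marked too few. Intervals and floors cover counting error only. Positions are from GENCODE M21 (GRCm38). The test was also run on simulated data as a check, with no outcome given here. Levels are not scaled for gene length and are not compared between genes.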

Additional observations from a re-analysis of the deposited data

Results flagged for a closer look

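Of 31 gene lists whose summed level in members was compared over the 6 tumours, the WT late tumour lay far above the other 5 in 3, where the gap to the next value, divided by the range, passed Dixon's 95% critical value of 0.625. Chance gives such a gap in about 1 of 20 groups. Imprinted genes summed to 44.5 UMIs per 10000 in WT late members against 2.33 to 5.14 in the others (gap over range 0.933), and the cycling tumour cells of that library were also high (27.8, against 2.35 to 4.61). H19, a noncoding RNA expressed from the maternal allele in the embryo (chr7:142575529-142578143), made up 39.3 of the sum in members, against 1.18, 0.198, 2.12, 0.459 and 0.0541 in the WT early, KO early, WT intermediate, KO intermediate and KO late tumours. H19 UMIs were found in 77 of 121 WT late members (63.6%), and the cell with the most held 644 of its 3753 UMIs. Mural and fibroblast markers summed to 11.2 in WT late members against 0.232 to 3.83 (gap over range 0.673), with Col1a2 at 4.95 and Dcn, a matrix proteoglycan, at 2.18. Over all 6 tumours Col1a2 was found in 14 of 967 members (1.45%) and Dcn in 13 (1.34%), so few cells carried these values. Genes of the p53 and Myc pathways summed to 71.3 against 56.6 to 60.2 (gap over range 0.756), and in cycling tumour cells WT late was again the highest (85.6, against 69.8 to 79.4). The part of this library's cells, depth or dissociation in these values was not tested.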

How the results depend on the processing

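Among 86 named genes tested against glia, 63 kept their direction and passed in each alternative that tested them. Of the single values, 1285 were unchanged in this sense, 60 no longer passed and 2 changed sign, Flt1 with naïve glia (-0.98) and Col1a2 with DESeq2 (-0.47). Calls against glia, 2647, became 6062 without the filter on low counts and 6555 with naïve glia, and ran from 1814 (without WT early) to 2599 with 1 library left out. Calls against OPCs, 1902, were 3237 without the filter, 927 with at least 10 cells per sum, 630 with at least 1500 genes per cell, and 1190 (without WT early) to 1761 with 1 library left out. Calls against astrocytes, 2293, were 4075 without the filter, 1300 with at least 1500 genes and 6105 with naïve glia. Calls against oligodendrocytes, 2855, were 5597 without the filter and 5253 with naïve glia. Calls between KO and WT hosts, 0 by edgeR, were 9 with DESeq2, 194 without the filter and 1 (without WT late, or KO late) to 103 (without WT intermediate) with 1 library left out, with 91 without WT early, 57 without KO early and 30 without KO intermediate. Late against early gave 2 with DESeq2, 121 without the filter, and 0 (without WT early) to 64 (without WT intermediate), with 17 without KO early and 9 without KO intermediate. Unfiltered counts test more genes, and the cause of the other changes was not tested. The S phase log2 ratio of non-cycling to cycling tumour cells, -1.34, was -2.52 where members had an S phase list below 10, -1.77 with a cycle threshold of 2 and -0.89 with a threshold of 10, alternatives chosen after seeing the data. Members and glia were paired by library and the genotypes by stage, as blocks in the tests. By replicate number, no paired analysis was possible because all libraries carry the same number. Without the stage block KO against WT gave 0 calls, as with it. The smallest glial sum held 12836 UMIs, so low genes could not be tested, and 1 mouse per group limits genotype and stage.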
